A study of Mus musculus with 6 samples.

Results

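The Bcl2 family and caspase genes examined here, 7 in number, act in apoptosis and were measured in mouse melanocytes after transfection with an siRNA against Dicer: Mcl1, Bcl2 and Bcl2l1, which keep cells alive, Bok and Bcl2l11, which promote death, and the proteases Casp8 and Casp6. They were taken by symbol, each from the probe set whose platform annotation gives that symbol alone, with the highest mean level where a gene has several. All 7 were found, each with 1 probe set, among 7486 genes that have a probe set of their own and 16383 probe sets in all. Melan-a cells received siDicer or, as controls, the siRNA siScr and were lysed at 24 hours. Each group had 3 arrays, from passages 47, 54 and 56. Melan-a is a single immortal line of female C57BL/6 melanocytes, so nothing here speaks for other melanocytes, and both groups were grown with the phorbol ester TPA and received lipid and magnetic transfection reagents. Total RNA was hybridised to mouse Clariom D arrays, and the values are log2 signals.

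Apoptosis through mitochondria is set by the Bcl2 family. Prosurvival members hold the effector proteins Bax and Bak1 in check, BH3-only proteins such as Bcl2l11 (Bim) bind the prosurvival members and release the effectors, and Bok, a relative of Bax and Bak1, is known to act without that restraint. The cytochrome c set free from mitochondria then leads to caspase activation. Death receptors start caspases from the cell surface through Casp8. In melanocytes Bcl2 is known for a survival role, since mice without it lose their hair pigment. Dicer makes mature microRNAs, and several microRNAs are known to repress mRNAs of this family.

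Array medians ran from 4.58 to 4.64 and RNA integrity numbers from 9.7 to 10. Of 426 olfactory and vomeronasal receptor genes, used as a gauge of background, 95% lay below a level of 4.22, and all 7 members lay above it. Named genes come almost only from chromosomes 1 to 4, where 7439 of 7530 probe sets with a single symbol were placed. Dicer1 was not analysed here, so the siDicer label could not be checked. Of 15 melanocyte markers 4 were measured, among them Tyrp1 at a mean of 12.8 and Pax3 at 10.6. Tyr, Dct, Pmel, Mlana, Sox10 and Mitf were not analysed here. In bulk RNA, fewer cells of a type and less RNA per cell cannot be told apart.

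None of the 7 genes passed the threshold between siDicer and siScr (limma with replicate number as a block, adjusted p from 0.171 to 0.827), where 0.995% of all probe sets passed. Those were 163 probe sets, 124 (0.757%) higher and 39 (0.238%) lower in siDicer. At an unadjusted p under 0.05 limma gave 2568, or 15.7%. Of the members 2 had such a p, Mcl1 and Bcl2. The 95% intervals of the 7 changes lay between -0.33 and 0.31 log2 units, about 1.25-fold lower and 1.24-fold higher. These bounds are those of this fit only. With cyclic loess normalization the change of Mcl1 was -0.24 ± 0.05 (SE), and without replicate 2 that of Bcl2 was 0.19 ± 0.08 (SE). The smallest change among the 163 probe sets that passed was 0.35 log2 units. Groups did not overlap for 4 members, of which Bcl2 and Bcl2l11 were higher and Mcl1 and Casp6 lower in siDicer. Over all probe sets 15.9% did not overlap, 7.57% higher and 8.29% lower.

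**Figure D1:**
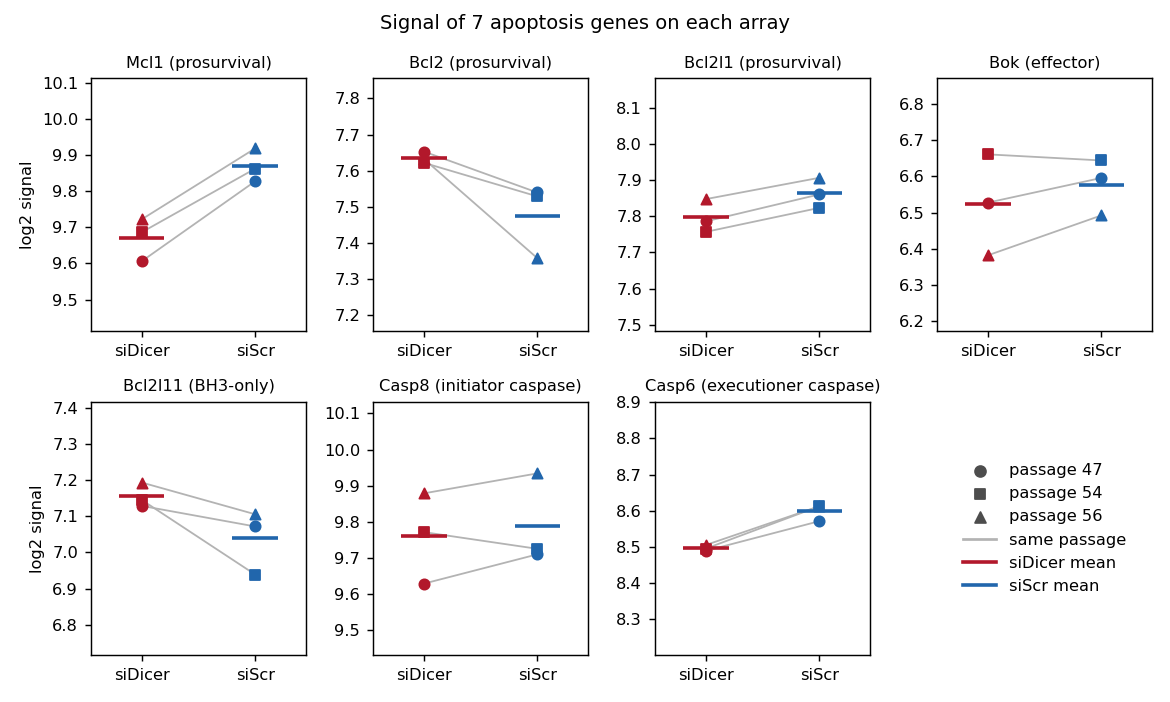
Log2 signal of each member on each of the 6 arrays, siDicer left and siScr right, with grey lines joining arrays of the same passage and bars at the group means; every panel spans 0.7 log2 units. Mcl1 and Casp6 lie lower and Bcl2 and Bcl2l11 higher on all 3 siDicer arrays than on any siScr array. Bok and Casp8 overlap, with values spread between the passages.

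Mcl1, a short-lived prosurvival protein, had the smallest p of the members. Its log2 signal at passages 47, 54 and 56 was 9.61, 9.69 and 9.72 in siDicer cells, against 9.83, 9.86 and 9.92 in siScr cells. Every siDicer array lay below every siScr array, and the pairs differed by -0.22, -0.18 and -0.20. Means were 9.67 ± 0.06 in siDicer and 9.87 ± 0.05 in siScr (SD, n = 3 each). The fit gave -0.20 ± 0.05 (SE) with a 95% interval from -0.33 to -0.069, or 1.15-fold lower (limma, adjusted p = 0.171). Of all probe sets 5.22% had a smaller p.

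Bcl2, the founding prosurvival member, lay on the other side. It stood at 7.65, 7.62 and 7.63 in siDicer cells at passages 47, 54 and 56, against 7.54, 7.53 and 7.36 in siScr cells. The siDicer arrays were nearly level, and the widest gap, 0.27, came from the low siScr array at passage 56. The fit gave 0.16 ± 0.06 (SE) with an interval from 0.011 to 0.31, or 1.12-fold higher (limma, adjusted p = 0.289). Without the passage 56 pair the change was 0.10.

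Bcl2l1, which encodes the prosurvival protein Bcl-xL, was at 7.79, 7.76 and 7.85 in siDicer cells, against 7.86, 7.82 and 7.91 in siScr cells at the same passages. The groups overlapped, yet the pairs differed by nearly the same amount each time, by -0.075, -0.066 and -0.059. The log2 change was -0.067 with an interval from -0.19 to 0.06 (limma, adjusted p = 0.579).

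Of the 3 prosurvival genes, Bcl2 had a change above 0 and the others below 0. Differences between 2 genes on the same array show only how they shifted relative to each other, whatever constant is added to an array. Bcl2 minus Mcl1 was -1.95, -2.06 and -2.09 log2 units on the siDicer arrays, against -2.29, -2.33 and -2.56 on the siScr arrays. The gap between the probe sets, which itself has no meaning as a ratio of transcripts, was thus narrower in siDicer by 0.33, 0.27 and 0.47 in the 3 pairs. The mean was 0.36 ± 0.10 (SD, n = 3 pairs), a 1.28-fold shift of Bcl2 relative to Mcl1. Bcl2l1 relative to Mcl1 shifted by 0.13 ± 0.02 and Bcl2 relative to Bcl2l1 by 0.23 ± 0.09. These differences were chosen after the values were seen and were not tested.

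**Figure D2:**
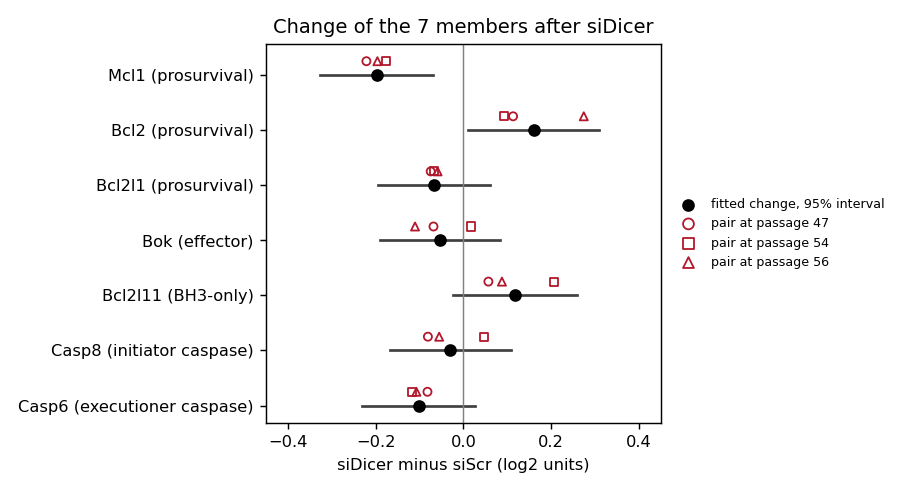
Change in siDicer minus siScr for each member in log2 units: filled points are the fitted change with its 95% interval, and open symbols are the 3 pairs at passages 47, 54 and 56. The intervals of Mcl1 and Bcl2 leave out 0 on opposite sides before adjustment, and the 3 pairs of Bcl2l1, Mcl1 and Casp6 sit close together.

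Bcl2l11, the BH3-only protein Bim, was at 7.13, 7.15 and 7.19 in siDicer cells, against 7.07, 6.94 and 7.11 in siScr cells. All siDicer arrays were above all siScr arrays, although the highest siScr and the lowest siDicer value nearly met. The log2 change was 0.12 with an interval from -0.024 to 0.26 (limma, adjusted p = 0.394). The passage 54 pair differed most, by 0.21, and without it (replicate 2) the change was 0.073. Bmf, another BH3-only gene and the other measured one of 8 listed, had a change of 0.10 (adjusted p = 0.407), higher in all 3 pairs.

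Bok, an effector relative of Bax and Bak1, was at 6.53, 6.66 and 6.38 in siDicer cells and at 6.60, 6.64 and 6.49 in siScr cells. The groups overlapped, 2 pairs were lower and 1 higher, and the log2 change was -0.054 with an interval from -0.19 to 0.083 (limma, adjusted p = 0.681). It was -0.089 without replicate 2 and -0.026 without replicate 3. Bax and Bak1 were not analysed here.

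Casp8, the initiator caspase of death receptors, was at 9.63, 9.77 and 9.88 in siDicer cells, against 9.71, 9.73 and 9.93 in siScr cells at passages 47, 54 and 56. The groups overlapped almost wholly, and the log2 change was -0.030 with an interval from -0.17 to 0.11 (limma, adjusted p = 0.827). Without replicate 1 it was -0.0046, without replicate 2 -0.068 and without replicate 3 -0.017. Casp6, an executioner caspase that cleaves lamin A, was at 8.49, 8.50 and 8.51 in siDicer cells, against 8.57, 8.61 and 8.61 in siScr cells. No array of one group reached the other, and the spread within groups was small, with an SD of 0.0081 in siDicer and 0.024 in siScr (n = 3 each). The change of Casp6 was -0.10 with an interval from -0.23 to 0.026 (limma, adjusted p = 0.408). Casp9, the initiator caspase of the mitochondrial route and the other measured caspase of 10 listed, had a change of 0.033 (adjusted p = 0.796).

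The sign was the same in all 3 pairs for 5 members, higher for Bcl2 and Bcl2l11 and lower for Mcl1, Bcl2l1 and Casp6, and 40.4% of all probe sets had such a uniform sign (17.9% higher, 22.6% lower). An exact test that turns the signs of 3 pairs cannot give a two-sided p under 0.25. The median change of the members was -0.054, beside -0.014 over all probe sets.

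Values of Casp8 and Bok were spread more between passages than between siRNAs. For Casp8 the mean of both arrays was 9.67 at passage 47, 9.75 at passage 54 and 9.91 at passage 56, a range of 0.24, against a size of 0.030 for the siRNA. Both passage 56 arrays were above the other 4. For Bok the passage means were 6.56, 6.65 and 6.44, a range of 0.22, with passage 56 lowest in both groups. Casp6 was the steadiest, with a range of 0.029. For Mcl1, Bcl2, Bcl2l11 and Casp6 the passage range was smaller than the siRNA change. The range was larger for Casp8, Bok and Bcl2l1 (0.087 against a size of 0.067 for Bcl2l1), as in 73.6% of all probe sets.

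None of the members passed the test between passages (moderated F-test of limma, adjusted p from 0.306 to 0.951), where 0.586% of probe sets did. Casp8 alone among them had an unadjusted p under 0.05 (0.0349 in limma, 0.0526 for Bok), as did 14.5% of all probe sets, 2380 in number. Each passage had 1 array per siRNA and its own replicate number, so passage cannot be told apart from anything else that differed between replicates. A change of the siRNA effect with passage was not tested.

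**Figure D3:**
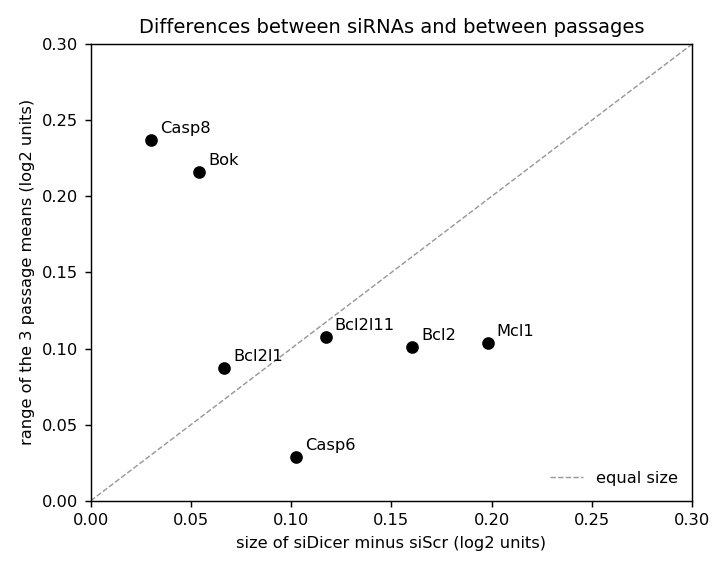
Range of the 3 passage means (vertical) against the size of the siDicer minus siScr change (horizontal) for each member, both in log2 units, with the line of equal size dashed; a range of 3 means and a difference of 2 groups are different measures. Casp8 and Bok stand high on the left with ranges of 0.24 and 0.22, and Mcl1 and Bcl2 lie to the right below the line.

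Among 3343 named genes with a level above the median, those with the array profile most like that of Mcl1 were Psmf1, an inhibitor of the proteasome, and Rprd2, a protein that binds RNA polymerase II. Their mean-centred values differed from those of Mcl1 by a root mean square of 0.024 and 0.027 log2 units over the 6 arrays, where the median gene differed by 0.13. Psmf1 was at 7.17, 7.28 and 7.34 in siDicer cells and at 7.47, 7.47 and 7.55 in siScr cells. Like Mcl1, neither passed the threshold (log2 changes of -0.23 and -0.24, adjusted p = 0.141 and 0.128 in limma). Casp8, the member with the widest passage range, was most like Wls, a carrier of Wnt proteins, and Kcnip3, a calcium-binding protein, at 0.043 and 0.045. The 6 arrays share passages in pairs, so these profiles rest on few independent points.

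Of 107 other genes listed for the apoptosis pathway 24 were measured, of which 1 rose, 0 fell and 23 did not pass in limma. Over all probe sets 0.757% rose and 0.238% fell. The median change of the 24 was -0.015, beside -0.014 over all probe sets. The gene that rose was Sptan1, alpha II spectrin, a membrane skeleton protein that caspases and calpains cleave. It was at 10.09, 10.00 and 10.15 in siDicer cells (mean 10.08 ± 0.07), against 9.56, 9.58 and 9.53 in siScr cells (mean 9.56 ± 0.03; SD, n = 3 each). All siDicer arrays lay well above all siScr arrays, 0.52 ± 0.06 log2 units apart (SE), or 1.43-fold (limma, adjusted p = 0.0312). Leaving out the pair of replicate 2 or of replicate 3 ended this call (adjusted p = 0.149 and 0.134 in limma), as it ended every call in the table, and so did a fit with no variance moderation (adjusted p = 0.354). In the same list of caspase substrates and nucleases, Dffa, the inhibitor and chaperone of the caspase-activated DNase, had a change of 0.22 (adjusted p = 0.148), with 1 of 5 measured members past the threshold.

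None of the 6 measured genes listed under death receptors, a list wider than that name, passed in limma. Traf6, an adaptor of Toll-like and interleukin-1 receptors, was at 7.16, 7.23 and 7.24 in siDicer cells, against 6.78, 6.94 and 6.79 in siScr cells. The groups were well apart, and its change was 0.37 (adjusted p = 0.0539). It passed when only probe sets above the median level or with 1 symbol were tested, or with an intensity trend (adjusted p from 0.0168 to 0.0302), and in none of its 10 other alternatives. Trp53bp2, a p53-binding protein that promotes apoptosis, had a change of 0.13 (adjusted p = 0.346). The ligand genes Fasl and Tnfsf10, with means of 2.92 and 3.30, lay below the background gauge.

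None of the 3 measured caspase regulators passed. Cflar, a relative of Casp8 without protease activity that restrains it, had a change of -0.23 (limma, adjusted p = 0.139) on the probe set of higher level, which by its number lies on chromosome 3, although RefSeq has Cflar on chromosome 1, so it may not report that gene. Its other probe set, numbered on chromosome 1, had a change of -0.11 (adjusted p = 0.377). Birc7, an inhibitor of apoptosis also called livin, had a change of -0.069 (adjusted p = 0.589). Of 5 other genes, listed for a Bcl2-like name, sequence or binding, none passed. Their changes were below 0, as in 55.6% of all probe sets, although Bcl2l15 lay below the background gauge and Bag2 was higher in 2 of 3 pairs. Among the 5, Bag1, a Hsp70 cofactor that binds Bcl2, had -0.17 (adjusted p = 0.255) and Bnipl -0.061 (adjusted p = 0.626). Among 3 measured genes of Mcl1 protein turnover none passed. Usp13, a deubiquitinase, had a change of -0.091 (adjusted p = 0.459), and Fbxw7, an F-box protein that marks Mcl1 for degradation, 0.078 (adjusted p = 0.526). The mean of Usp13, 4.27, lay barely above the background gauge.

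**Figure D4:**
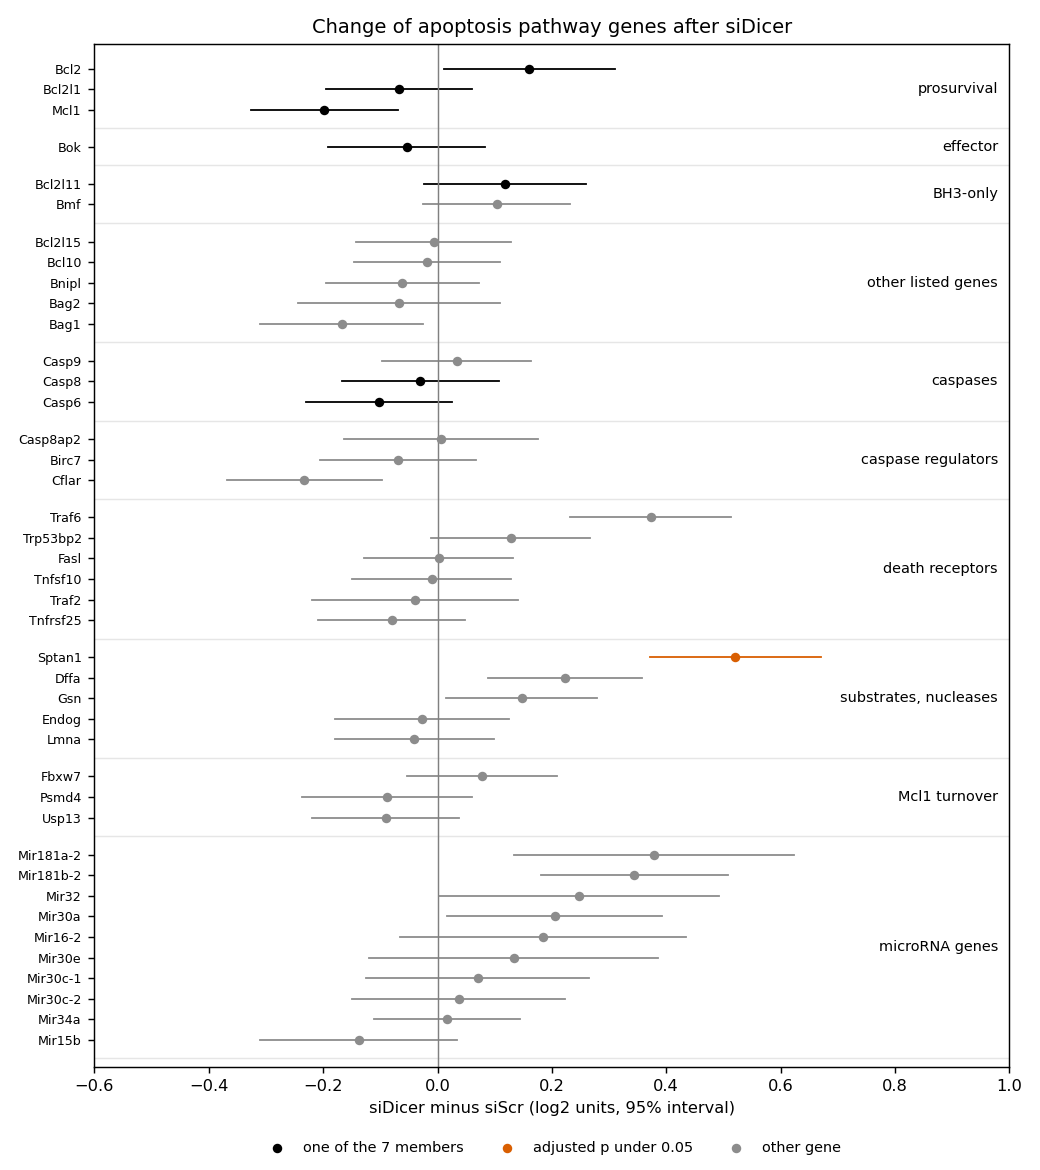
Change in siDicer minus siScr with its 95% interval in log2 units for each measured gene of the apoptosis lists and for the microRNA genes, with members in black. Only Sptan1, in orange at 0.52, passed the adjusted threshold; the members cluster within 0.20 of 0.

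Of 29 microRNA genes listed as regulators of these members 10 had a probe set, which reports the gene's transcript and not the mature microRNA that Dicer makes. They fall into groups by the seed, bases 2 to 8, which pairs with target mRNAs. The groups shown are those of miR-15 and miR-16, known to repress human BCL2, of miR-34a, a p53-induced microRNA also known to repress human BCL2, and of miR-181, reported to act on mouse Bcl2 and Mcl1. The sequences are those of RefSeq (GRCm38.p6), with the seed in capitals. Those from chromosomes 3, 4 and 2 all lie on the plus strand.
mmu-miR-15b-5p: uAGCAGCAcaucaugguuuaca
mmu-miR-16-5p: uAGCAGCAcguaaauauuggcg
mmu-miR-34a-5p: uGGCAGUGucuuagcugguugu
mmu-miR-181a-5p: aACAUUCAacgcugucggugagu
mmu-miR-181b-5p: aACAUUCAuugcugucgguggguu

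None of the 10 passed between siDicer and siScr in limma, 9 had a change above 0, as 44.4% of all probe sets did, and their median was 0.16. Several of these genes lie close to each other on a chromosome, so their signs are not independent. Mir181b-2 was at 4.48, 5.38 and 5.02 in siDicer cells at passages 47, 54 and 56, against 4.22, 4.89 and 4.75 in siScr cells. It was higher in siDicer in all 3 pairs although the groups overlapped, with a change of 0.34 (adjusted p = 0.0931). It differed between passages (moderated F-test of limma, adjusted p = 0.0356), with both passage 47 arrays lowest. The siScr array at that passage, at 4.22, lay at the level of the background gauge. Mir181a-2, of the same seed and cluster, had a change of 0.38 (adjusted p = 0.169). Mir15b and Mir16-2, which share a seed and a host transcript, had changes of -0.14 and 0.18 (adjusted p = 0.408 and 0.44). Each rested largely on 1 pair: Mir15b differed by -0.31, -0.046 and -0.058 at passages 47, 54 and 56, and Mir16-2 by -0.0020, 0.50 and 0.054. Mir34a and Mir32, with means of 3.13 and 3.86, lay below the background gauge.

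Marker lists of other cell types were summed on each array as a check of the cultures. The summed linear signal of 4 melanocyte markers was 9617 to 10609 on siDicer arrays and 9526 to 10830 on siScr arrays. Tyrp1, with a mean log2 signal of 12.8, made up most of that sum, beside 10.6 for Pax3, 10.3 for Mlph and 6.69 for Mreg. Of the 4, the melanosome gene Mreg alone rose (log2 change of 0.62, adjusted p = 0.0435 in limma), as 0.757% of all probe sets did. For 4 fibroblast markers the sum was 276 to 327 in siDicer and 252 to 299 in siScr. Col5a1 and Postn were higher in all 3 pairs (log2 changes of 0.19 and 0.25), as were 17.9% of all probe sets. Col3a1 and Col5a2 had changes of -0.0015 and -0.060, and none of the 4 passed in limma. For 3 keratinocyte markers the sum was 71.6 to 75.6 in siDicer and 74.9 to 81.1 in siScr. The keratinocyte markers Ivl and Sprr1a, with means of 3.86 and 3.88, lay below the background gauge. For 6 immune markers it was 132 to 148 in siDicer, against 158 to 159 in siScr, so all siDicer arrays lay below all siScr arrays. Taken singly, 3 of the 6 had that order, C1qa, C1qb and Fcer1g, as did 8.29% of all probe sets. None of the 6 passed in limma. Ptprc, which marks all leukocytes, and Cd48 lay at 2.84 and 2.87, below the background gauge. The part of these markers in the members' values was not tested.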

How the data were processed

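The authors deposited a table of log2 signals, 1 value for each probe set (transcript cluster) and array. Per the submitters' processing notes, it came from Affymetrix Expression Console. Not given in the sources used here are its version, the background correction, the normalization and the genome build. Any scaling of arrays to each other would mask a shift common to most transcripts, and background compresses differences of dim probe sets. Symbols came from the platform annotation, 230 of them updated through Entrez numbers: 7530 probe sets had 1 symbol, 455 several and 8398 none.

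All 16383 probe sets were fitted with limma 3.58.1 in R 4.3.3 (lmFit, eBayes without trend) on siRNA group and replicate number. P-values were adjusted by Benjamini-Hochberg over all of them, with 0.05 as the threshold. The same fit gave the F-test between passages. Replicate numbers go with passage in the labels, and deviations from the group means correlated at 0.44, 0.41 and 0.24 between same-numbered arrays, so the numbers pair the samples. The labels call the arrays biological replicates of 1 line, and their number limits the precision. The procedure was tested on simulated data.

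The members and gene lists were chosen with earlier results of these data known, and the lists got no set test. Named were the members, list genes past the threshold or among the 2 smallest p of a list, and the 2 genes most like each of 2 members (root mean square difference of mean-centred values). Markers, Fasl, Tnfsf10, Bcl2l15, Bag2, Mir15b, Mir16-2, Mir32, Mir34a and Casp8ap2 were named after their values were seen.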

Additional observations from a re-analysis of the deposited data

How the results depend on the processing

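Each of the 7 members kept its direction and stayed outside the threshold in all 13 alternatives. The lowest adjusted p, 0.0707 for Mcl1, came with only probe sets of 1 symbol tested, and the changes of Mcl1 ran from -0.24 to -0.18, of Bcl2 from 0.10 to 0.19, of Bcl2l11 from 0.073 to 0.15, of Bok from -0.089 to -0.026 and of Casp8 from -0.072 to -0.0046. No gene had another probe set to try. Without the replicate block, which pairs arrays of the same passage, 35 probe sets passed in place of 163 (Mcl1 at an adjusted p of 0.355). Quantile normalization gave 84 (54 higher and 30 lower, against 124 and 39 as deposited) and cyclic loess 93. Testing only probe sets above the median level gave 388, only those of 1 symbol 281, and an intensity trend 302. With no variance moderation, an alternative chosen after seeing the data, 0 passed (1900 at an unadjusted p under 0.05 in limma's linear fit). Leaving out a pair gave 0 to 157: 0 without replicate 2 or 3 (2171 and 1814 at an unadjusted p under 0.05 in limma), and 157 without replicate 1, at the same number of arrays. Between passages 96 probe sets passed; quantile normalization gave 63, the level filter 172, 1 symbol 166, the trend 145, and leaving out a pair 19 (without replicate 2) to 114. The cause of these shifts was not tested.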

Other observations

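The 3 pairs of Bcl2l1, Casp6 and Mcl1 differed so evenly that their residual SDs in the paired fit were 0.0056, 0.013 and 0.016 log2 units, lower than those of all but 0.519%, 2.80% and 4.32% of probe sets. The median over all probe sets was 0.072. Since limma draws each variance toward that of the whole table, their standard errors were all about 0.053. Each residual SD rests on only 2 degrees of freedom. With no such moderation, the adjusted p in limma's linear fit was 0.334 for both Bcl2l1 and Mcl1 and 0.354 for Casp6. In the main limma fit it was 0.579, 0.171 and 0.408. For Bcl2l1 the value of 0.334 was the lowest among its alternatives, in a fit where 0 probe sets passed.

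Casp8ap2, a Casp8-associated protein that is also needed for histone mRNA processing, was at 6.61, 6.96 and 7.15 in siDicer cells at passages 47, 54 and 56 and at 6.70, 7.01 and 6.98 in siScr cells. Both passage 47 arrays were lowest, with a range of passage means of 0.41 and an adjusted p of 0.192 between passages (moderated F-test of limma). Its change between siDicer and siScr was 0.0064 (adjusted p = 0.977). It was picked out after its values were seen.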
